A study of Homo sapiens with 12 samples.

Results

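The genes described here are 40 genes of ribosome biogenesis and RNA polymerase I (Pol I), chosen as a list of symbols and read in both count tables of the series. All 40 symbols matched 1 Ensembl identifier each, among 61860 rows of the overexpression table and 62700 rows of the resistance table, and all 40 passed the filter on low counts in both. RNA-seq was made from total RNA of RT4, an established human bladder cancer line that all 12 libraries share, in 2 experiments with 3 libraries per group. In the overexpression experiment, cells in McCoy's 5A medium had received a plasmid that encodes the integrin subunit ITGB4 with a Flag tag, or the empty Flag vector. In the resistance experiment, cells in MEM were a cisplatin-resistant line labelled with cisplatin treatment or normal (parental) RT4 cells labelled with PBS, each with the genotype WT and with no dose or time given. The labels do not say whether the resistant line is 1 clone, nor which promoter drives the plasmid. The group labels of replicates 2 and 3 of the overexpression experiment number the integrin ITGB5 and ITGB6, while every title of that experiment names ITGB4.

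Total counts were 22701466 to 33352045 per library in the overexpression experiment and 31824582 to 38199946 in the resistance experiment. ITGB4 itself averaged 1427 ± 53.6 CPM in plasmid libraries and 869 ± 10.97 CPM in vector libraries, and 837 ± 9.37 CPM in resistant libraries and 600.0 ± 2.09 CPM in parental libraries (SD, n = 3 each; CPM are counts scaled to library size, with TMM factors, within each experiment). Of 18 urothelial and epithelial markers 17 were high enough to be tested in each experiment, and the 18 had summed levels of 7663 to 8180 CPM in plasmid libraries, 6297 to 6495 in vector libraries, 8998 to 10283 in resistant libraries and 8757 to 8813 in parental libraries. Single markers went both ways. Of the 17, 8 were higher and 7 lower in plasmid libraries (adjusted p under 0.05, edgeR's quasi-likelihood test), against 36.5% and 35.7% of all genes tested. In resistant libraries 7 were higher and 8 lower, against 26.8% and 27.7%. The 14 fibroblast, endothelial and immune markers summed to 26.3 to 27.9 CPM in plasmid libraries and 50.7 to 54.6 in vector libraries. They summed to 6.01 to 6.99 CPM in resistant libraries and 13.4 to 13.8 in parental libraries. Between 4 and 9 of these 14 markers were at 0 in each library, and 11 of 14 were too low to be tested in each experiment. Of the 3 tested, 1 was higher and 2 lower in plasmid libraries, and 1 was higher and 1 lower in resistant libraries. COL3A1 and COL1A1, collagen genes, made up most of these sums. The part of these marker levels in the results below was not tested.

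Ribosomes are assembled in the nucleolus. Pol I, guided by UBTF and brought to the promoter by RRN3, transcribes a long precursor of the ribosomal RNAs. Small nucleolar ribonucleoproteins (snoRNPs) modify it, those of the box C/D class by ribose methylation and those of the box H/ACA class by pseudouridylation, and large complexes such as the small-subunit processome and the PeBoW complex then cleave and fold it. The genes for these factors are themselves transcribed by RNA polymerase II and are widely known as a co-regulated set that responds to growth signals and to MYC.

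The promoters of 5 of these genes are shown because they include the largest rise of each experiment (POLR1B and EBNA1BP2), genes called in opposite directions and a gene that rose in plasmid libraries with a called difference between the experiments (UTP4), and because 4 of them carry the E-box CACGTG, the letters that MYC and its partner MAX are known to bind. Each line holds the 250 bases before the start of the gene in RefSeq on GRCh38.p14, read 5′ to 3′ on the strand of the gene, with each CACGTG in capitals. The region of NOP10 is chr15:34343137-34343386 on the minus strand, that of UTP20 is chr12:101279855-101280104 on the plus strand, and that of UTP4 is chr16:69132399-69132648 on the plus strand. The region of EBNA1BP2 is chr1:43172571-43172820 on the minus strand and that of POLR1B, which holds no such hexamer, is chr2:112541786-112542035 on the plus strand.
NOP10: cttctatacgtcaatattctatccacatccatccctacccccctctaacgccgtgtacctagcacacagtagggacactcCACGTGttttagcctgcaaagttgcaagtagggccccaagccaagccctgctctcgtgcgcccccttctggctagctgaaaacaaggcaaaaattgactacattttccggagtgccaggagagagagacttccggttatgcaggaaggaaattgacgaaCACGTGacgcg
UTP20: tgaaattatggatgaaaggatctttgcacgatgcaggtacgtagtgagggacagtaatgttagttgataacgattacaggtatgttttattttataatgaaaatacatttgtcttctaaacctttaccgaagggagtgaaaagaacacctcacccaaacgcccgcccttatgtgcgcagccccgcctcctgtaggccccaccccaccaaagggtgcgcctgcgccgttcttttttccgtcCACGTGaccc
UTP4: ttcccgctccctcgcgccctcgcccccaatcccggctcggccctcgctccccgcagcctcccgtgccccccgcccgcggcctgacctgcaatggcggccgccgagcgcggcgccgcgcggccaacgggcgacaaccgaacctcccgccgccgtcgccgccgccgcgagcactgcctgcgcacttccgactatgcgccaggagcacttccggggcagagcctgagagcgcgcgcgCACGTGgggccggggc
EBNA1BP2: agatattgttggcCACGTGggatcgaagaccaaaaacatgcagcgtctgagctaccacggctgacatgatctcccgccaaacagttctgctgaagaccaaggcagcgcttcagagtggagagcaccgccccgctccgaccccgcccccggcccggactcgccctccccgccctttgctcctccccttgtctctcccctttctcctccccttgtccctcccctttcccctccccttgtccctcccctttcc
POLR1B: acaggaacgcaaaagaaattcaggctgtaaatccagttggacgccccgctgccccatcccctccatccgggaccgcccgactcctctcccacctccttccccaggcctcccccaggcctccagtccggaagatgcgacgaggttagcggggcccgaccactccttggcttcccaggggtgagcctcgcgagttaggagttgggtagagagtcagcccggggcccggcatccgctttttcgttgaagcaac

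RefSeq gave a promoter for 35 of the 40 genes, from 250 bases before to 50 bases after the start, and 12 of these 35 (34.3%) held CACGTG. The same hexamer, which reads alike on both strands, was in 2030 of 27305 promoters of all genes (7.43%) and in 1407 of 15842 promoters of protein-coding genes (8.88%). In NOP10 it began 170 and 11 bases before the start, in UTP20 10 bases before it, in UTP4 16 bases before it and in EBNA1BP2 237 bases before it. RRP9 had it 5 bases before the start, and in the other 7 of the 12 (BYSL, FBL, MRTO4, NOP14, NOP2, PES1 and WDR43) it lay within the first transcribed bases. The 12 genes with the hexamer had 9 transcripts higher and 2 lower in plasmid libraries, with a median log2 fold change of 0.46, and 7 higher and 1 lower in resistant libraries, with a median of 0.42. The 23 without it had 13 higher and 5 lower in plasmid libraries (median 0.16), and 15 higher and 3 lower in resistant libraries (median 0.21). Of all genes tested, 36.5% were higher and 35.7% lower in plasmid libraries, and 26.8% were higher and 27.7% lower in resistant libraries. The hexamer matches describe the letters only and say nothing of binding. In GENCODE 29 on the same assembly, all 40 are protein-coding genes. POLR1B (ENSG00000125630) spans chr2:112541915-112577150 (plus strand), UBTF (ENSG00000108312) chr17:44205033-44221626 (minus) and EBNA1BP2 (ENSG00000117395) chr1:43164175-43270936 (minus). NOP10 (ENSG00000182117) spans chr15:34341713-34343177 (minus) and UTP20 (ENSG00000120800) chr12:101280109-101386616 (plus). Gene starts differ between GENCODE and RefSeq. The regions shown above for POLR1B and NOP10 lie partly within these GENCODE spans, and that for EBNA1BP2 lies wholly within its span. The region for UTP4 also lies wholly within its GENCODE span, chr16:69131291-69231130 (plus).

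The overexpression experiment asks which transcripts differ when ITGB4 is supplied on a plasmid. Ribosome biogenesis transcripts were mostly higher in plasmid libraries: 26 of the 40 rose, 7 fell and 7 were not called, at an adjusted p under 0.05 in edgeR's quasi-likelihood test. The median log2 fold change of the 40 was 0.28 (1.21-fold), with a range of -0.52 to 0.94, and 7 of the rises and none of the falls exceeded 1.5-fold. Over all 16950 genes tested, 72.2% were called, 36.5% as higher and 35.7% as lower, with a median log2 fold change of 0.00175. Of the genes tested, 33% were called and over 1.5-fold apart, 2729 of them higher and 2858 lower in plasmid libraries. The plasmid and vector libraries did not overlap for 32 of the 40, with 26 higher and 6 lower in plasmid libraries, against 74.5% of all genes tested. Summed over the 40, the plasmid libraries had 4590 to 4712 CPM and the vector libraries 4070 to 4160 CPM. In bulk RNA, a change in the share of cells that express a gene and a change in RNA per cell cannot be told apart.

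The resistance experiment asks which transcripts differ between the cisplatin-resistant line and its parent. Again most of the transcripts were higher: 27 of the 40 rose in resistant libraries, 4 fell and 9 were not called. Their median log2 fold change was 0.35 (1.27-fold), with a range of -1.28 to 0.83. Of the rises, 5 exceeded 1.5-fold, as did 1 of the falls, that of RRN3. Over all 16875 genes tested, 54.5% were called, 26.8% as higher and 27.7% as lower, with a median of 0.0181. Of the genes tested, 23.7% were called and over 1.5-fold apart, 2240 of them higher and 1758 lower in resistant libraries. Resistant and parental libraries did not overlap for 33 of the 40, 30 of them higher and 3 lower in resistant libraries, against 60.8% of all genes tested. Summed over the 40, the resistant libraries had 6529 to 6725 CPM and the parental libraries 5448 to 5508 CPM.

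The split of the resistance calls depended on the scaling. With TMM scaling, 87.1% of the called ribosome biogenesis genes were higher in resistant libraries, against 49.1% of all called genes. With library sizes alone, the median of all genes moved up by 0.16 (log2), 34 of the 40 were called higher and none lower (100%), and 67.8% of all called genes were higher. With upper-quartile scaling the median of all genes moved by 0.11, and 33 were called higher and 1 lower (97.1%, against 61.6% of all called genes). Relative to the median of all genes, the median of the 40 was 0.33 under each of these scalings, which is fixed by construction, since a scaling shifts every gene by a like amount. In the overexpression experiment the same scalings gave 24 higher with 7 or 8 lower.

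**Figure D1:**
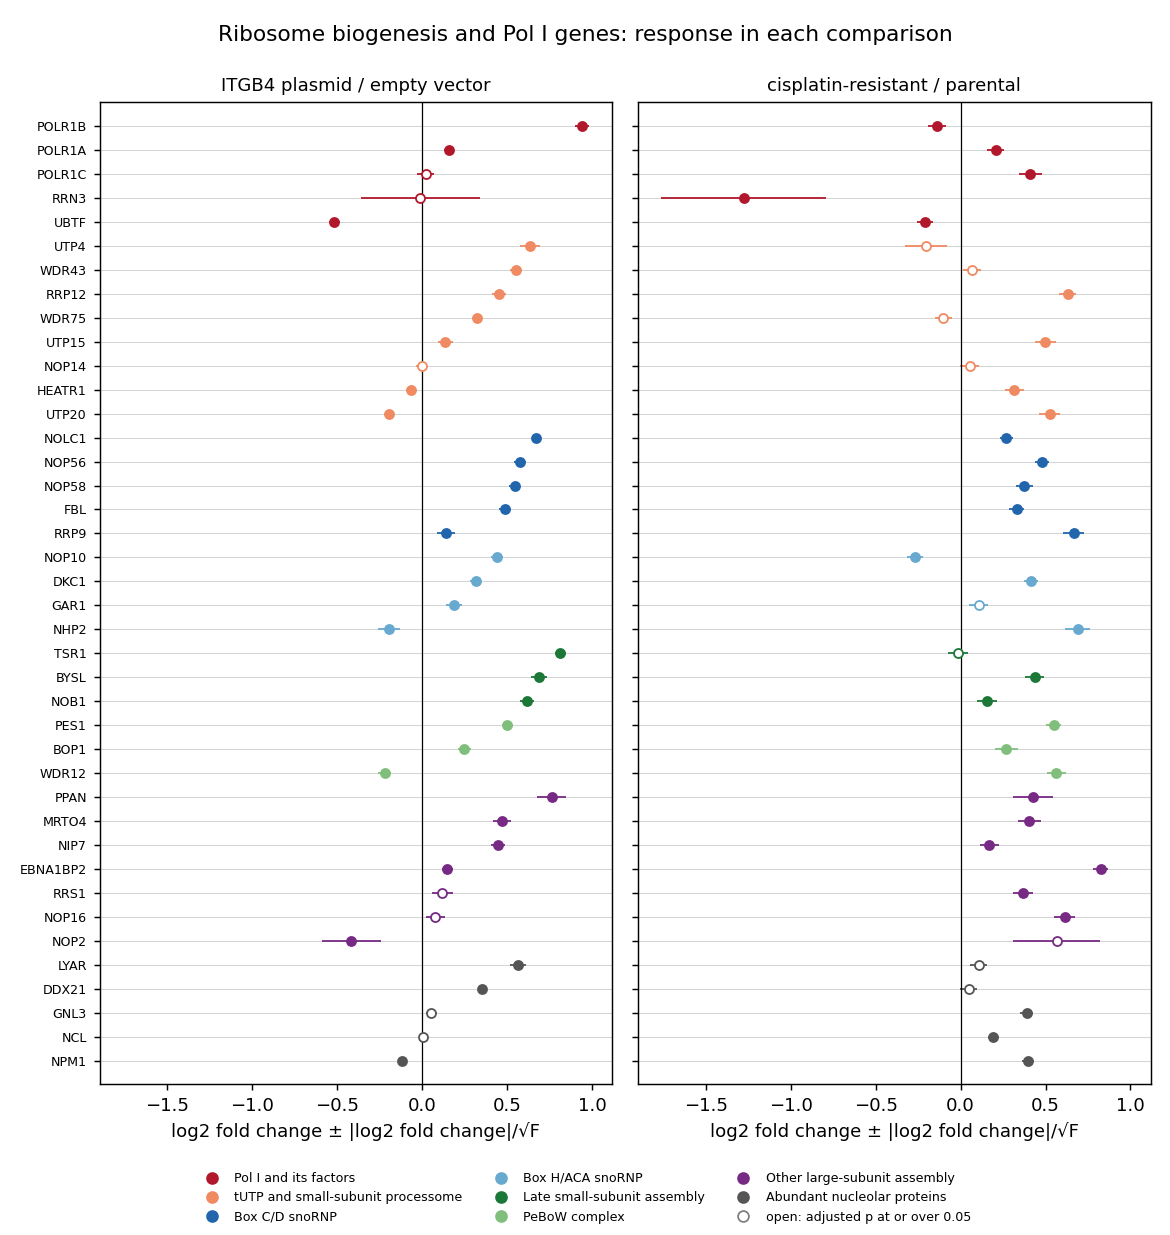
Log2 fold change of each of the 40 genes in plasmid over vector libraries (left) and in resistant over parental libraries (right), grouped and coloured by role, with bars of 1 approximate standard error on either side. Filled points passed an adjusted p of 0.05, as 33 did on the left and 31 on the right. Most points lie to the right of 0 in both panels, while POLR1B, NOP10, NHP2, NPM1, UTP20, WDR12 and HEATR1 are called on opposite sides of 0.

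Of the 5 genes of Pol I and its factors, 2 rose and 1 fell in plasmid libraries (against 36.5% and 35.7% of all genes tested). In resistant libraries 2 rose and 3 fell (against 26.8% and 27.7% of all genes tested). POLR1B, the second-largest subunit of Pol I, had 82.0, 87.5 and 85.2 CPM in the plasmid libraries and 47.0, 44.3 and 41.9 CPM in the vector libraries. All 3 plasmid libraries lay far above the 3 vector libraries, and this was the largest change among the 40 genes in that experiment. Its log2 fold change was 0.94 ± 0.041 (1.92-fold; adjusted p = 2.35e-12; after a log2 fold change, ± is an approximate standard error, the absolute change over √F of the test). In the resistance experiment POLR1B had 82.8, 91.0 and 93.9 CPM in resistant libraries and 98.1, 98.9 and 97.6 CPM in parental libraries. Here every resistant library was below every parental library, by a small margin, with a log2 fold change of -0.14 ± 0.052 (adjusted p = 0.0328). That call was lost without any 1 parental library and without resistant library 1 or 2 (adjusted p = 0.0608 to 0.121), it was lost with upper-quartile scaling (-0.03), and with library sizes alone the sign turned (0.03).

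POLR1A, the largest subunit of Pol I, rose slightly in both experiments, by 0.16 ± 0.028 in plasmid libraries (adjusted p = 9.09e-05) and 0.21 ± 0.051 in resistant libraries (adjusted p = 0.00243), both on the log2 scale. POLR1C, a subunit that Pol I shares with RNA polymerase III, was not called in plasmid libraries (25.5 ± 1.40 against 25.0 ± 0.806 CPM in vector libraries) and rose in resistant libraries, at 42.5 ± 2.39 against 32.0 ± 1.90 CPM in parental libraries (log2 0.41 ± 0.068, adjusted p = 6.41e-05). UBTF, the upstream binding factor that marks active ribosomal DNA, was the only one of the 40 called lower in both experiments. Its levels were 60.3, 59.8 and 59.2 CPM in plasmid libraries and 84.1, 88.4 and 84.0 CPM in vector libraries. They were 77.2, 79.3 and 75.4 CPM in resistant libraries and 88.8, 89.2 and 89.7 CPM in parental libraries. The groups did not overlap in either experiment, with log2 fold changes of -0.52 ± 0.033 (adjusted p = 4.09e-10) and -0.21 ± 0.047 (adjusted p = 0.00112), but the second call was lost with library sizes alone (-0.04) and with upper-quartile scaling (-0.10).

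RRN3, the initiation factor that recruits Pol I, was listed at few counts, 496 over the overexpression libraries and 434 over the resistance libraries, fewer than the 2194 and 1457 counts of its pseudogene rows. It had 1.75, 2.02 and 4.56 CPM in plasmid libraries against 2.02, 1.67 and 4.82 CPM in vector libraries, which overlap and gave no call. In resistant libraries it had 0.807, 1.29 and 1.42 CPM, against 1.47, 0.964 and 6.11 CPM in parental libraries. The groups overlap there too, and parental library c alone was high. The log2 fold change of -1.28 ± 0.486 passed (adjusted p = 0.0346), but without parental library c it was -0.06 (adjusted p = 0.91), and the call was also lost without resistant library 1 or 2, with library sizes alone, upper-quartile scaling, DESeq2, limma-voom and the fit of 12 libraries. How reads are shared between RRN3 and its pseudogenes was not tested.

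**Figure D2:**
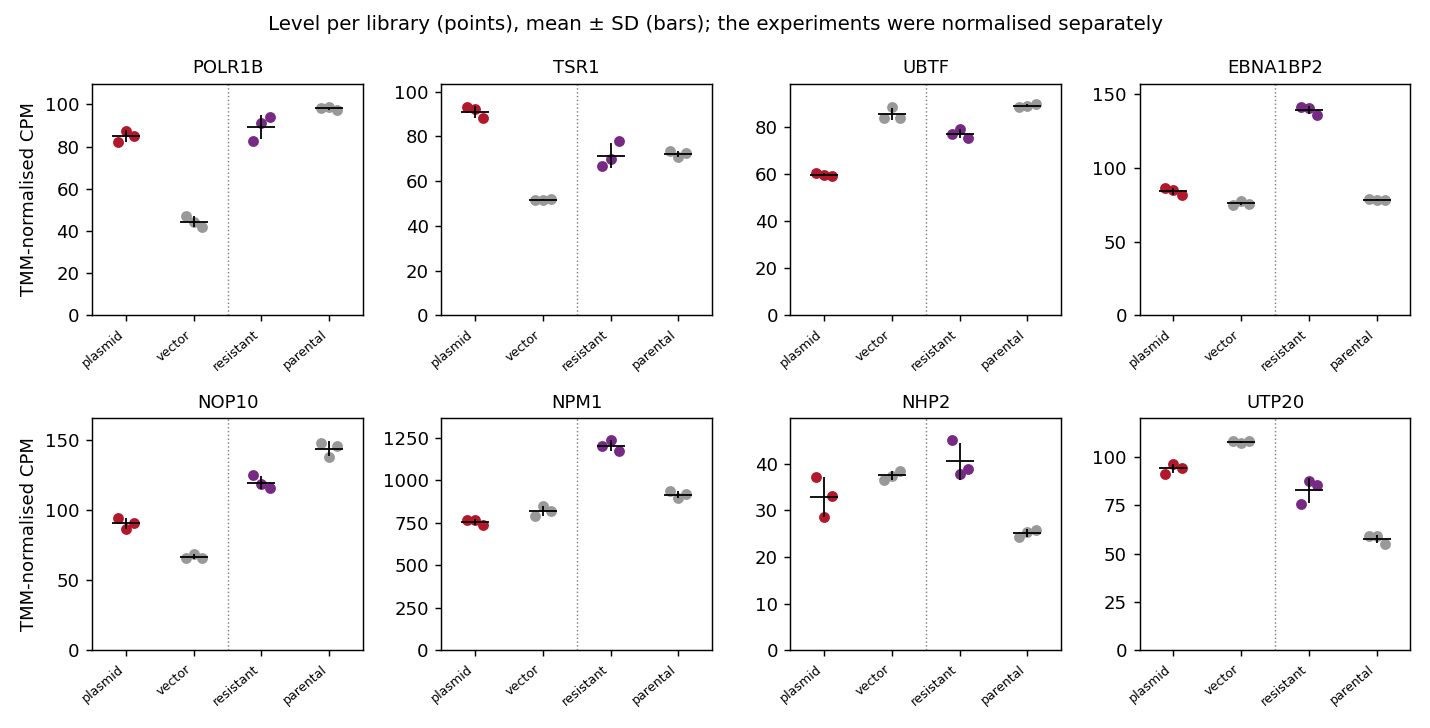
TMM-normalised CPM of 8 genes in every library (points), with the mean (horizontal line) and SD (vertical line) of each group of 3, for plasmid, vector, resistant and parental libraries from left to right. Scaling was done within each experiment, so levels compare only on the same side of the dotted line. POLR1B and TSR1 separate plasmid from vector libraries, EBNA1BP2 separates resistant from parental libraries, and NOP10, NPM1, NHP2 and UTP20 move in opposite directions.

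All 5 genes grouped here under box C/D snoRNPs were called higher in each experiment. The shares of all genes tested were 36.5% in plasmid libraries and 26.8% in resistant libraries. The medians of the 5 were 0.54 in plasmid libraries and 0.38 in resistant libraries (log2). The plasmid call of RRP9 was lost in several alternatives, as given below. In the test for a change over 1.2-fold, the resistant calls of FBL and NOLC1 were lost as well (adjusted p = 0.0663 and 0.392). NOLC1, a nucleolar phosphoprotein that associates with snoRNPs and Pol I, had 202, 201 and 197 CPM in plasmid libraries and 125, 127 and 126 CPM in vector libraries. These libraries lay well apart, and the log2 fold change was 0.67 ± 0.027 (adjusted p = 5.77e-13). NOP56 and NOP58, the scaffold proteins of the particle, rose by 0.57 ± 0.037 and 0.54 ± 0.034 in plasmid libraries (adjusted p = 3.7e-10 and 2.17e-10), and by 0.48 ± 0.040 and 0.37 ± 0.051 in resistant libraries (adjusted p = 1.64e-08 and 7.08e-06). FBL, the methyltransferase fibrillarin, averaged 215 ± 10.2 CPM in plasmid libraries and 154 ± 4.10 CPM in vector libraries. It averaged 298 ± 13.6 CPM in resistant libraries and 237 ± 9.44 CPM in parental libraries.

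RRP9, a protein of the U3 snoRNP, rose more in resistant than in plasmid libraries (difference -0.55 ± 0.083, adjusted p = 7.71e-06). In resistant libraries it had 51.9, 48.0 and 46.8 CPM, against 31.0, 30.8 and 30.6 CPM in parental libraries, which are clearly separate. Its log2 fold change there was 0.67 ± 0.062 (adjusted p = 8.15e-08), while in plasmid libraries it was 0.14 ± 0.055 (adjusted p = 0.0297). The plasmid call was lost without plasmid library 1, vector library 1 or vector library 3 (adjusted p = 0.0533 to 0.154). It was also lost with library sizes alone (adjusted p = 0.103) and with upper-quartile scaling (adjusted p = 0.215). DESeq2 (adjusted p = 0.0979), no filter (adjusted p = 0.0599) and the fit of 12 libraries (adjusted p = 0.0806) did not call it either.

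Of the 4 box H/ACA proteins, which also bind telomerase RNA, 3 rose and 1 fell in plasmid libraries (against 36.5% and 35.7% of all genes tested). In resistant libraries 2 rose and 1 fell (against 26.8% and 27.7% of all genes tested). DKC1, the pseudouridine synthase dyskerin, rose in both experiments, with 127 ± 3.40 CPM in plasmid libraries against 102 ± 1.37 CPM in vector libraries, and 258 ± 7.51 CPM in resistant libraries against 194 ± 3.11 CPM in parental libraries. NOP10, a small core protein that binds dyskerin, had 93.8, 86.4 and 90.5 CPM in plasmid libraries and 65.6, 68.4 and 65.3 CPM in vector libraries. It had 125, 118 and 116 CPM in resistant libraries and 147, 138 and 145 CPM in parental libraries. The groups were apart in both experiments, in opposite directions, with log2 fold changes of 0.44 ± 0.036 (adjusted p = 8.16e-09) and -0.27 ± 0.047 (adjusted p = 0.000115), although the second was not called with library sizes alone (-0.10, adjusted p = 0.0678).

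NHP2, the third core protein, went the other way round. It had 37.1, 28.5 and 33.1 CPM in plasmid libraries and 36.5, 37.4 and 38.4 CPM in vector libraries, so that plasmid library 1 overlapped the vector libraries. Its log2 fold change of -0.19 ± 0.065 (adjusted p = 0.0131) was not called without plasmid library 2 (-0.10, adjusted p = 0.0929) or without vector library 3 (-0.18, adjusted p = 0.0527). In resistant libraries NHP2 had 45.0, 37.7 and 38.8 CPM, against 24.2, 25.3 and 25.8 CPM in parental libraries, with no overlap (log2 0.69 ± 0.075, adjusted p = 5.46e-07). The exons of NHP2 share 27.4% of their length with RMND5B on the other strand, and reads of such partners cannot be told apart in the overexpression table, which was counted without strand. GAR1, the fourth core protein, rose by 0.19 ± 0.047 in plasmid libraries (adjusted p = 0.00183) and was not called in resistant libraries (log2 0.11 ± 0.057, adjusted p = 0.129), although library sizes alone, upper-quartile scaling and the fit of 12 libraries called it higher there (0.27, 0.21 and 0.12).

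**Figure D3:**
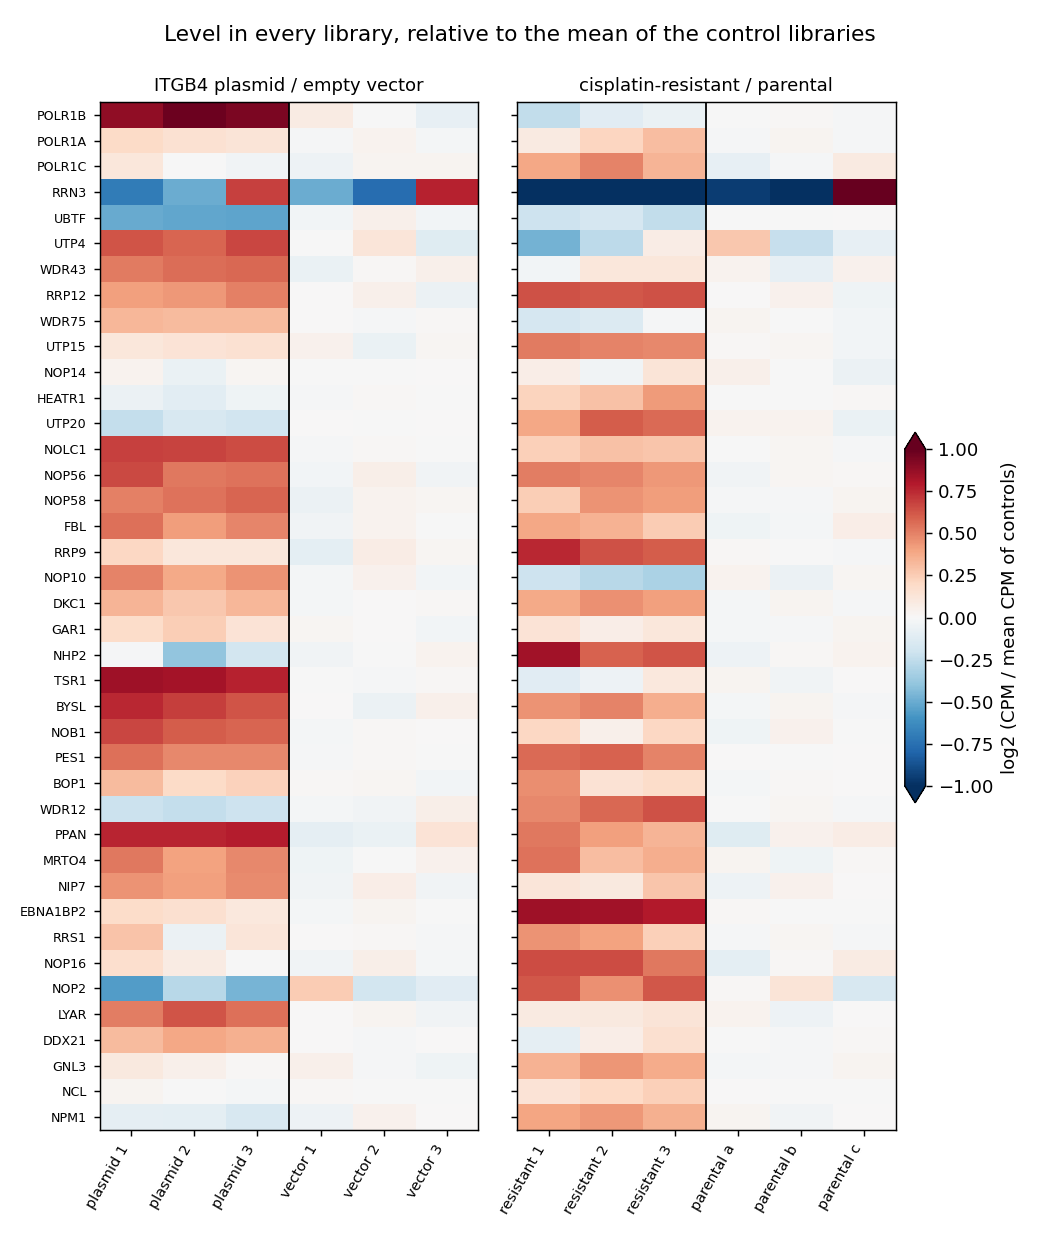
Log2 of the TMM-normalised CPM of each gene in each library over the mean of the 3 control libraries of its experiment, red for higher and blue for lower, with values beyond 1 in either direction shown at the end of the scale. The 3 libraries of a group have like colours for most genes, while RRN3 and UTP4 vary visibly within groups.

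The small-subunit processome binds the precursor RNA as it is made. Of 8 of its genes, 5 rose and 2 fell in plasmid libraries (against 36.5% and 35.7% of all genes tested). In resistant libraries 4 rose and none fell (against 26.8% and 27.7% of all genes tested). UTP4, a subunit of the tUTP module that joins first, had 28.4, 27.5 and 29.1 CPM in plasmid libraries and 18.3, 19.9 and 16.9 CPM in vector libraries. The groups did not overlap and the log2 fold change was 0.63 ± 0.059 (adjusted p = 4.36e-08), while in resistant libraries UTP4 averaged 32.1 ± 6.18 CPM against 37.0 ± 6.82 CPM in parental libraries, with no call (log2 -0.20, adjusted p = 0.179). That value depended on single libraries: it ranged from -0.36 without resistant library 3, where UTP4 was called lower (adjusted p = 0.0138), to -0.05 without parental library a. With no filter on low counts UTP4 was called lower as well (adjusted p = 0.0174). WDR43 and WDR75, also of the tUTP module, had rises of 0.55 ± 0.033 and 0.32 ± 0.029 in plasmid libraries (adjusted p = 1.72e-10 and 2.63e-08) and no call in resistant libraries (log2 0.07 and -0.10). There, WDR43 was called higher without resistant library 1 (0.12, adjusted p = 0.0207), with library sizes alone and with upper-quartile scaling, and WDR75 was called lower without resistant library 3 (-0.15, adjusted p = 0.0129), while its sign turned with those scalings. UTP15, of the same module, had the larger rise in resistant libraries, with 42.4, 41.6 and 41.4 CPM against 29.8, 30.0 and 28.9 CPM in parental libraries (log2 0.50 ± 0.061, adjusted p = 2.14e-06). In plasmid libraries UTP15 rose by 0.14 ± 0.045 (adjusted p = 0.0117), a call lost without vector library 2, with library sizes alone, with upper-quartile scaling and with DESeq2 (adjusted p = 0.0668 to 0.163), and the difference was -0.39 ± 0.071 (adjusted p = 7.61e-05). RRP12, whose yeast homologue acts in maturation and export of both subunits, rose in both experiments. It had 46.4, 46.9 and 49.3 CPM in plasmid libraries and 34.9, 36.0 and 33.5 CPM in vector libraries. In resistant libraries RRP12 had 77.9, 77.0 and 77.6 CPM, against 50.2, 51.5 and 48.5 CPM in parental libraries (log2 0.63 ± 0.051, adjusted p = 1.09e-08).

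UTP20, a large scaffold protein of the processome, was opposite in the 2 experiments. It had 91.5, 96.6 and 94.4 CPM in plasmid libraries and 108, 108 and 108 CPM in vector libraries. In resistant libraries it had 75.6, 87.8 and 85.3 CPM, against 59.0, 59.0 and 55.1 CPM in parental libraries. Neither pair of groups overlapped, with log2 fold changes of -0.20 ± 0.030 (adjusted p = 1.71e-05) and 0.52 ± 0.060 (adjusted p = 9.56e-07). HEATR1, the human UTP10 homologue and another member of the tUTP module, which is needed for Pol I transcription and early processing, had 106, 103 and 108 CPM in plasmid libraries and 109.7, 112 and 110.4 CPM in vector libraries. The groups lay next to each other without overlap, and the log2 fold change of -0.07 ± 0.030 was at the threshold (adjusted p = 0.0479). It was not called with DESeq2, limma-voom, no filter or the fit of 12 libraries, nor without plasmid library 2 or 3 or any 1 vector library (adjusted p = 0.0566 to 0.219). In resistant libraries HEATR1 had 74.4, 78.1 and 85.9 CPM, against 63.6, 63.8 and 64.3 CPM in parental libraries, a rise of 0.32 ± 0.056 (adjusted p = 0.000136; difference -0.41 ± 0.063, adjusted p = 1.04e-05). The exons of HEATR1 share 23.2% of their length with LGALS8 on the other strand. NOP14, a processome protein whose exons partly overlap the antisense gene NOP14-AS1, was called in neither experiment, with log2 fold changes of -0.00386 ± 0.034 and 0.05 ± 0.058, although library sizes alone and upper-quartile scaling called it higher in resistant libraries (0.22 and 0.16).

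The 3 late small-subunit factors all rose by over 1.5-fold in plasmid libraries, where 2729 of all 16950 genes tested were called higher by over 1.5-fold. TSR1, a GTPase-like protein of late precursors known best in yeast, had 93.2, 92.1 and 88.1 CPM in plasmid libraries and 51.6, 51.5 and 52.2 CPM in vector libraries. These groups were far apart relative to their spread (log2 0.81 ± 0.034, adjusted p = 1.01e-12). In resistant libraries TSR1 had 66.6, 69.9 and 77.8 CPM against 73.5, 70.7 and 72.5 CPM in parental libraries, which overlap, with no call (log2 -0.01, adjusted p = 0.848). With library sizes alone the sign turned and TSR1 was called higher there (0.15, adjusted p = 0.0394). BYSL, the assembly factor bystin, had 39.2, 37.4 and 35.9 CPM in plasmid libraries and 23.3, 22.3 and 24.0 CPM in vector libraries, without overlap (log2 0.69 ± 0.047, adjusted p = 9.15e-10). It rose in resistant libraries as well, by 0.44 ± 0.057 (adjusted p = 5.11e-06). NOB1, the endonuclease that makes the final cut of the small-subunit RNA, rose by 0.62 ± 0.040 in plasmid libraries (adjusted p = 4.79e-10). Its rise of 0.16 ± 0.058 in resistant libraries (adjusted p = 0.0309) was lost without parental library a or c or resistant library 1 or 3 (adjusted p = 0.0531 to 0.136).

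The PeBoW complex, named after PES1, BOP1 and WDR12, is required to process the internal spacer before the large-subunit RNA. PES1 rose by 0.50 ± 0.032 in plasmid libraries (adjusted p = 3.51e-10) and by 0.55 ± 0.044 in resistant libraries (adjusted p = 1.22e-08), and BOP1 by 0.25 ± 0.037 (adjusted p = 1.31e-05) and 0.27 ± 0.068 (adjusted p = 0.0028). BOP1 had 96.9, 77.8 and 79.8 CPM in resistant libraries against 69.4, 71.0 and 70.5 CPM in parental libraries, and without resistant library 1, the high one, its rise was 0.17 and was still called. WDR12, their partner, had 39.4, 38.8 and 39.7 CPM in plasmid libraries and 45.1, 44.6 and 47.6 CPM in vector libraries. It had 61.5, 65.7 and 68.5 CPM in resistant libraries and 44.0, 44.8 and 43.7 CPM in parental libraries. The groups did not overlap in either experiment, with a fall of 0.22 on the log2 scale in plasmid libraries (adjusted p = 7.91e-05) and a rise of 0.56 ± 0.057 in resistant libraries (adjusted p = 1.99e-07). Thus 2 of the 3 genes rose and 1 fell in plasmid libraries (against 36.5% and 35.7% of all genes tested). All 3 rose in resistant libraries (against 26.8% higher and 27.7% lower of all genes tested). In a test for a change over 1.2-fold, WDR12 and BOP1 were not called in plasmid libraries (adjusted p = 0.839 and 0.576). Nor was BOP1 in resistant libraries (adjusted p = 0.42).

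Of 7 other large-subunit factors, 4 rose and 1 fell in plasmid libraries (against 36.5% and 35.7% of all genes tested). In resistant libraries 6 rose and none fell (against 26.8% and 27.7% of all genes tested). EBNA1BP2, the human homologue of yeast EBP2, had 141, 140.3 and 136 CPM in resistant libraries and 78.9, 78.1 and 78.4 CPM in parental libraries. This was the largest rise among the 40 in that experiment, with no overlap (1.77-fold; log2 0.83 ± 0.044, adjusted p = 5.62e-11). In plasmid libraries EBNA1BP2 rose by 0.15 ± 0.033 (84.0 ± 2.39 against 75.8 ± 1.26 CPM in vector libraries, adjusted p = 0.000721). NOP16, a nucleolar protein of large-subunit precursors, had 68.8, 68.7 and 62.8 CPM in resistant libraries and 40.9, 44.0 and 46.2 CPM in parental libraries. These did not overlap (log2 0.61 ± 0.061, adjusted p = 1.77e-07), whereas NOP16 was not called in plasmid libraries (log2 0.08 ± 0.054, adjusted p = 0.209). RRS1, which in yeast brings the 5S particle into the large subunit, likewise rose in resistant libraries (log2 0.37 ± 0.058, adjusted p = 4.23e-05) with no call in plasmid libraries (log2 0.12 ± 0.061, adjusted p = 0.0911). Without plasmid library 2, however, RRS1 was called there as well (log2 0.20, adjusted p = 0.00157).

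MRTO4, a homologue of the stalk protein P0, and NIP7 rose in both experiments, by 0.47 ± 0.053 and 0.45 ± 0.041 in plasmid libraries and by 0.40 ± 0.070 and 0.17 ± 0.056 in resistant libraries. The last of these calls (adjusted p = 0.0173) was lost without parental library a or c or resistant library 3 (adjusted p = 0.0566 to 0.0951). PPAN, a homologue of the yeast SSF proteins, had 9.24, 9.23 and 9.38 CPM in plasmid libraries and 5.13, 5.22 and 6.01 CPM in vector libraries, with no overlap (log2 0.76 ± 0.087, adjusted p = 5.67e-07). It rose by 0.43 ± 0.117 in resistant libraries (adjusted p = 0.00509). PPAN shares 56.0% of its exon length with the readthrough gene PPAN-P2RY11, which was listed at 1 count in the overexpression table and at 0 in the resistance table.

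NOP2, an rRNA methyltransferase, held few counts, 271 over the overexpression libraries and 302 over the resistance libraries. It had 1.26, 1.53 and 1.34 CPM in plasmid libraries and 2.21, 1.64 and 1.72 CPM in vector libraries, with no overlap. The log2 fold change of -0.42 ± 0.173 (adjusted p = 0.0399) was not called without plasmid library 1 or 3 or vector library 1 (adjusted p = 0.0979 to 0.188), nor with DESeq2, limma-voom, no filter or the fit of 12 libraries. In resistant libraries it had 1.67 ± 0.106 CPM against 1.13 ± 0.113 CPM in parental libraries (log2 0.57 ± 0.255, adjusted p = 0.0707), and it was called higher there with library sizes alone, upper-quartile scaling, a filter at 1 CPM and the fit of 12 libraries (adjusted p = 0.0176 to 0.0445). A second protein-coding gene on the same strand covers 54.4% of the exon length of NOP2 and was listed at 0 in both tables, and its part in the low counts of NOP2 was not tested.

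Of 5 abundant nucleolar proteins, 2 rose and 1 fell in plasmid libraries (against 36.5% and 35.7% of all genes tested). In resistant libraries 3 rose and none fell (against 26.8% and 27.7% of all genes tested). NPM1, the histone chaperone nucleophosmin, had 768, 765 and 734 CPM in plasmid libraries and 790, 846 and 822 CPM in vector libraries. It had 1203, 1238 and 1170 CPM in resistant libraries and 935, 893 and 917 CPM in parental libraries. Both pairs of groups were apart, with log2 fold changes of -0.12 ± 0.028 (adjusted p = 0.00124) and 0.40 ± 0.034 (adjusted p = 3.16e-08). The 49 pseudogene rows of NPM1 held 2.53% and 1.36% as many counts as NPM1 in the overexpression and resistance tables. NCL, the RNA-binding protein nucleolin, averaged 839 ± 15.1 CPM in plasmid libraries and 838 ± 4.48 CPM in vector libraries, with no call, though upper-quartile scaling called it lower (-0.06, adjusted p = 0.0205). It rose in resistant libraries, at 1273 ± 46.7 against 1113 ± 4.77 CPM in parental libraries (adjusted p = 0.000118). GNL3, the GTPase nucleostemin, followed the same pattern of calls, with a rise of 0.39 ± 0.040 in resistant libraries (adjusted p = 2.55e-07).

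DDX21, an RNA helicase, and LYAR, a nucleolar zinc-finger protein, did the reverse, with rises of 0.35 ± 0.026 and 0.56 ± 0.048 in plasmid libraries (adjusted p = 2.37e-09 and 1.32e-08) and no call in resistant libraries (adjusted p = 0.431 and 0.0816). Without resistant library 1, both were called higher there (log2 0.12 each, adjusted p = 0.00426 for DDX21 and 0.0426 for LYAR), as they were with library sizes alone (0.21 and 0.27) and with upper-quartile scaling (0.16 and 0.21). Divided by exon length, the levels of NPM1 were 197 CPM per kilobase in plasmid libraries and 214 in vector libraries, and those of NOP10 were 163 and 120. These stood above the levels of FBL on the same scale, 99.1 CPM per kilobase in plasmid libraries and 70.7 in vector libraries. At the low end on that scale were RRN3, with 0.668 in plasmid libraries and 0.682 in vector libraries, and NOP2, with 0.294 and 0.395.

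Set side by side, the 2 experiments, which share no libraries, had 17 of the 40 genes higher in both (42.5%), against 1113 of 15655 genes tested in both tables (7.11%). A further 7 (17.5%) were higher in plasmid libraries and not called in resistant libraries, against 14.3% of all genes tested in both. Not called in plasmid libraries and higher in resistant libraries were 5 (12.5%), against 6.76%. Opposite calls were made for 7 genes: NOP10 and POLR1B were higher in plasmid and lower in resistant libraries, and HEATR1, NHP2, NPM1, UTP20 and WDR12 were lower in plasmid and higher in resistant libraries. Of these calls, those of POLR1B in resistant libraries and of HEATR1 and NHP2 in plasmid libraries were lost when single libraries were left out, as given above, and the sign of POLR1B in resistant libraries turned with library sizes alone. In the test for a change over 1.2-fold, each of the 7 genes lost 1 of its 2 calls. The lost calls were those of NOP10 and POLR1B in resistant libraries and of HEATR1, NHP2, NPM1, UTP20 and WDR12 in plasmid libraries. Among all genes tested in both tables, 16.6% were higher in plasmid and lower in resistant libraries and 13.4% the reverse, against 5% and 12.5% of the 40. Across the 40 genes the fold changes of the 2 experiments had a Pearson correlation of -0.12 and a Spearman correlation of -0.24, as a description only, since the genes share their libraries. Over all 15655 genes the values were -0.31 and -0.28.

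The difference between the responses, tested in 1 fit of the 12 libraries, was called for 29 of the 40 genes, against 61.8% of the 18516 genes in that fit. It was positive, with a larger log2 fold change in the plasmid comparison, for 12 (background 30.2%) and negative for 17 (background 31.6%). POLR1B had the largest called difference, 1.05 ± 0.070 (adjusted p = 4.22e-11), followed by UTP4 (0.81 ± 0.169, adjusted p = 0.000314), TSR1 (0.81 ± 0.068, adjusted p = 2.23e-09) and NOP10 (0.68 ± 0.060, adjusted p = 3.73e-09). On the other side stood NOP2 (-1.01 ± 0.283, adjusted p = 0.00412), NHP2 (-0.90 ± 0.111, adjusted p = 4.78e-07), WDR12 (-0.81 ± 0.068, adjusted p = 1.72e-09), UTP20 (-0.75 ± 0.069, adjusted p = 7.5e-09) and EBNA1BP2 (-0.70 ± 0.051, adjusted p = 2.16e-10). All 7 genes with opposite calls had a called difference. This adds no independent evidence, since they were picked for calls of opposite sign in the same 12 libraries.

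Of the 17 genes higher in both experiments, 8 had no called difference: BOP1, FBL, MRTO4, NOP56, NOP58, PES1, POLR1A and PPAN. A missing call does not show that they responded alike: the difference was 0.13 ± 0.060 for FBL (adjusted p = 0.0612), 0.15 ± 0.065 for NOP58 (adjusted p = 0.0565) and 0.31 ± 0.141 for PPAN (adjusted p = 0.0598). FBL, NOP58, POLR1A and PPAN were each called when some single library was left out. DKC1, in turn, had a called difference of -0.12 ± 0.049 (adjusted p = 0.0339) that was lost without any single library other than resistant library 1 or 3 (adjusted p = 0.0543 to 0.183). With library sizes alone, the median difference of all genes moved by -0.18, and 9 of the 40 were then called larger and 21 smaller.

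**Figure D4:**
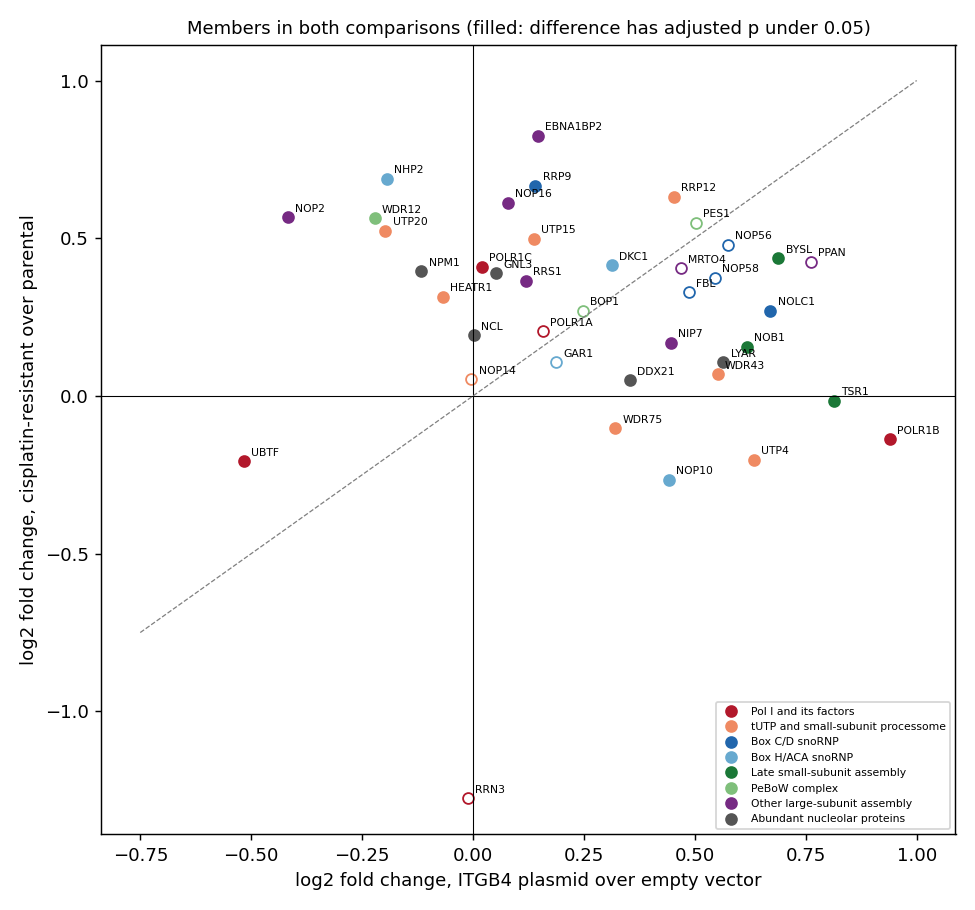
Log2 fold change of each of the 40 genes in plasmid over vector libraries (horizontal axis) against that in resistant over parental libraries (vertical axis), coloured by role, with a dashed line where both are equal. Filled points, 29 in all, have a called difference between the experiments; 17 genes are called higher on both axes, and POLR1B (0.94 and -0.14) and NHP2 (-0.19 and 0.69) lie far from the line.

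Other genes of the pathway, taken from lists of 131 genes with 127 tested in each experiment, had 81 higher and 17 lower in plasmid libraries and 80 higher and 11 lower in resistant libraries, with median log2 fold changes of 0.28 and 0.21. The shares of all genes tested, which apply to every count of this paragraph, were 36.5% higher and 35.7% lower in plasmid libraries. In resistant libraries they were 26.8% and 27.7%. The lists differed among themselves. Of 33 other processome factors, 26 were higher and 4 lower in plasmid libraries and 21 were higher and none lower in resistant libraries. NOL6, a processome scaffold, rose by 0.77 in plasmid libraries (adjusted p = 3.99e-11) and by 0.52 in resistant libraries (adjusted p = 2.97e-07). Of 45 other large-subunit factors, 32 were higher and 3 lower in plasmid libraries, led by NMD3, the export adapter of the large subunit (log2 0.83, adjusted p = 1.99e-12). In resistant libraries 34 of the 45 were higher and 4 lower, led by RPF2, a partner of RRS1 in yeast (log2 0.79, adjusted p = 3.02e-10).

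Late small-subunit factors outside the 40 had 2 of 10 higher and 5 lower in plasmid libraries (against 36.5% and 35.7% of all genes tested). In resistant libraries they had 6 higher and none lower (against 26.8% and 27.7%). The same shares of all genes apply to the other counts of this paragraph. RIOK1, an atypical kinase of that step, fell by 0.25 on the log2 scale in plasmid libraries (adjusted p = 0.00117) and rose by 0.57 in resistant libraries (adjusted p = 1.94e-06). Among 15 other Pol I subunits and factors, 8 were higher and 2 lower in plasmid libraries, and 7 were higher and 2 lower in resistant libraries. TCOF1, the Pol I cofactor treacle, had 172 ± 5.73 CPM in plasmid libraries against 95.4 ± 1.85 CPM in vector libraries (log2 0.85, adjusted p = 2.42e-13). It had 120.2 ± 2.95 CPM in resistant libraries against 160.1 ± 4.90 CPM in parental libraries (log2 -0.41, adjusted p = 3.98e-07). The snoRNP assembly factors had 7 of 10 higher in each experiment, with none lower in plasmid and 3 lower in resistant libraries. RUVBL2, an ATPase of that machinery, rose by 0.52 in both (adjusted p = 4.05e-10 and 6.64e-07). The nuclear exosome, which trims the precursor, had 6 of 14 higher and 3 lower in plasmid libraries and 5 higher and 2 lower in resistant libraries.

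**Figure D5:**
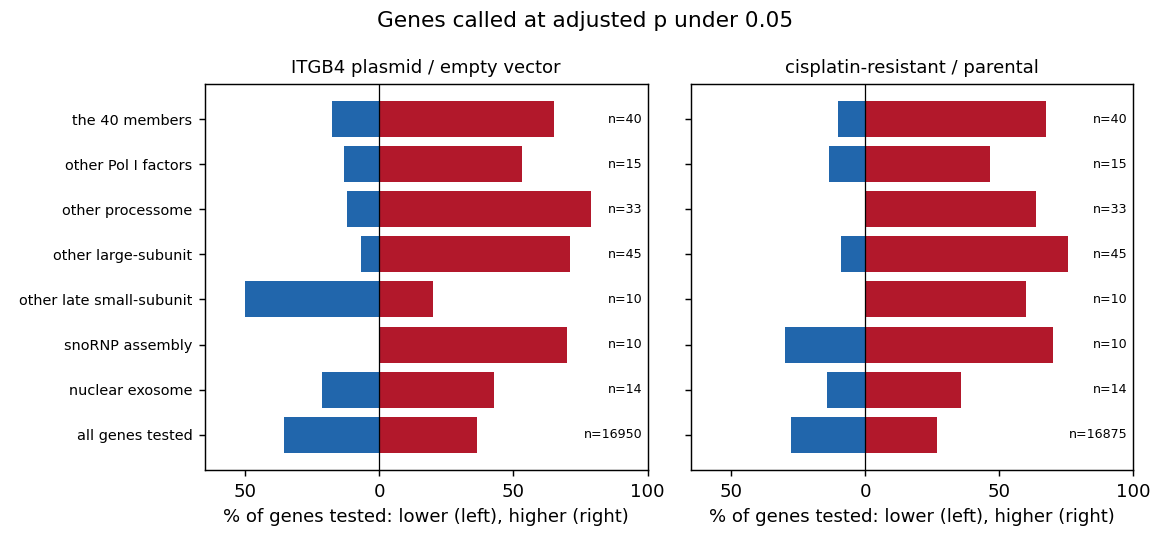
Percent of tested genes called lower (bars to the left of 0) and higher (bars to the right) for the 40 genes, for 6 other lists of the pathway and for all genes, in plasmid over vector libraries (left panel) and resistant over parental libraries (right panel), with the number tested beside each bar. The bars of the 40 genes reach further right than those of all genes in both panels, and other late small-subunit factors point left in the left panel only.

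MYC, a known activator of ribosome biogenesis genes, had 132.5, 128 and 129 CPM in plasmid libraries and 326, 333 and 328 CPM in vector libraries. It was thus far lower in every plasmid library (log2 -1.34 ± 0.027, adjusted p = 6.63e-17). In the resistance experiment MYC had 247, 234 and 224 CPM in resistant libraries and 230.3, 234 and 235 CPM in parental libraries, which overlap, with no call (log2 0.01 ± 0.043, adjusted p = 0.829).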

How the data were processed

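The values are raw counts per gene that the authors deposited in 2 tables, 1 for each experiment, with 6 libraries apiece. The library kit keeps strand information, per the labels' protocols. Per the file headers, read pairs of the overexpression libraries were counted over exons with featureCounts 2.0.1 and the Ensembl 107 annotation of GRCh38, with no strand option. For the resistance table, aligner, counter, annotation and strand setting were not given in the sources used here. The submitters' processing notes name hg38 as the build. Groups came from sample titles, except that the columns headed NC of the resistance table were taken as parental because the vector libraries have their own columns in the other table. This is an inference, and no label ties their numbers to samples, so they are called a, b and c. All columns of sample values were used. Nothing says that replicates were separate cultures, so p-values reflect variation between these libraries alone, possibly technical. Every replicate pair differed beyond sampling noise (chi-square per degree of freedom 1.68 to 16.3).

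Genes passing filterByExpr were tested per experiment with TMM scaling and edgeR 4.0.16's quasi-likelihood test under R 4.3.3, p-values were adjusted by Benjamini-Hochberg over every gene tested, and genes were called at an adjusted p under 0.05. The difference between experiments was tested in 1 fit with 4 group means. Procedures were tested on simulated data. The 40 genes, their roles and the other lists were chosen with earlier results of these data known, and are no independent evidence of direction. Values in every library are given for the 6 largest rises and falls called per experiment and for genes called in opposite directions, and other lists are named by up to 3 called genes of smallest p, of which some are given. HEATR1, MYC, FBL and other genes appear as examples of their group or as singly named genes. Alternatives were other scalings and filters, DESeq2 1.42.0, limma-voom (limma 3.58.1), a test for a change over 1.2-fold, contrasts from the 12-library fit, a replicate block, leaving out each library and, chosen after seeing the data, leaving out NOP2, PPAN and RRN3.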

Additional observations from a re-analysis of the deposited data

How the results depend on the processing

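Of 120 results for single genes (40 genes in the 2 comparisons and their difference), 63 kept their direction and their side of the threshold in every alternative run, 31 lost a call in at least 1, 19 gained one and 15 changed sign. For overexpression, the median log2 fold change of the 40 genes was 0.314 without NOP2, PPAN and RRN3, 0.241 with library sizes alone, 0.217 with upper-quartile scaling and 0.258 to 0.322 when single libraries were left out, and 1 gene fell in a test for a change over 1.2-fold. For resistance, the median was 0.33 without those 3 genes, 0.512 with library sizes alone and 0.453 with upper-quartile scaling. The number of genes lower in resistant libraries was 0 with library sizes alone, 1 with upper-quartile scaling, 0 in the 1.2-fold test and 2 to 6 when single libraries were left out. Of the signs that turned in plasmid libraries, that of NCL was at -0.00296 with DESeq2's size factors, -0.0382 with library sizes alone, -0.0622 with upper-quartile scaling, -0.00791 with no filter, -0.0164 with a filter at 1 CPM, -0.00304 with DESeq2 and -0.0115 in the fit of 12 libraries. POLR1C turned to -0.0204 with library sizes alone and -0.0447 with upper-quartile scaling, GNL3 to -0.0116 with upper-quartile scaling, and RRN3 to 0.0227 with limma-voom. When single libraries were left out, NCL ranged from -0.0131 to 0.0171, NOP14 from -0.0232 to 0.0322, POLR1C from -0.0244 to 0.054 and RRN3 from -0.627 to 0.654. In resistant libraries, library sizes alone turned POLR1B to 0.027, WDR75 to 0.0623 and TSR1 to 0.15, and upper-quartile scaling turned WDR75 to 0.00388 and TSR1 to 0.0912. TSR1 ranged from -0.0771 to 0.0391 and DDX21 from -0.00472 to 0.12 when single libraries were left out. In the difference, library sizes alone turned FBL to -0.0459, NOP56 to -0.107, NOP58 to -0.0333, GAR1 to -0.12 and MRTO4 to -0.137, and BOP1 ranged from -0.0868 to 0.0702 when single libraries were left out. The causes were not tested, apart from scaling, which by construction moves every gene by a like amount. The replicate numbers of the overexpression experiment showed no sign of pairing. Deviations of same-numbered libraries correlated at 0.0121, -0.066 and 0.0395, and those of other pairs at -0.0625 to 0.0498. Such values cannot exclude that libraries of equal number were made together. With the replicate block, 26 genes rose and 5 fell, HEATR1 and NOP2 no longer being called. No paired analysis was possible for resistance or the difference because the parental columns carry no number tied to a sample. Depth limits NOP2, PPAN and RRN3 most, with 271 to 1670 counts per table.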

Other observations

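Several of the 40 genes host small nucleolar RNAs in their introns, which guide the modifications made by snoRNPs. Of 16 such snoRNAs listed, 3 were high enough to be tested in the overexpression experiment and 2 in the resistance experiment. SNORD69, hosted by GNL3, had 0.314, 0.242 and 0.287 CPM in plasmid libraries and 0.951, 0.835 and 0.888 CPM in vector libraries, 22 against 79 counts in all, and fell by 1.65 on the log2 scale (edgeR's quasi-likelihood test, adjusted p = 3.78e-05). SNORD19, of the same host, held 34 counts in plasmid libraries and 88 in vector libraries and fell by 1.19 on the log2 scale (adjusted p = 0.000698), while GNL3 itself was not called there (log2 0.05). SNORD11, hosted by NOP58, was the other one tested and was not called, with 37 counts in plasmid libraries and 42 in vector libraries (log2 0.00341, adjusted p = 0.994). Neither SNORD69 nor SNORD19 was called in resistant libraries, with 53 counts against 34 in parental libraries for SNORD69 and 46 against 44 for SNORD19. These counts are small, and whether they are mature snoRNAs or intron reads of the host was not tested. Of 20 ribosomal RNA symbols looked up, 3 had a row. RNA5-8SN1 held 2 counts in plasmid libraries and 23 in vector libraries, and none of the 3 was high enough to be tested, so the output of Pol I is not measured by these tables.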
